A study of Mus musculus with 3 samples.

Results

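The tumour necrosis factor (TNF) ligands and receptors are 2 families of signalling proteins, and the TRAF adaptors carry the signal of many of the receptors into the cell. The genes described here were chosen by name: every gene probe whose gene name begins with Tnfsf or Tnfrsf and a number, together with Tnf, Lta, Ltb, Fas, Fasl, Eda, Edar, Ngfr and Traf1 to Traf6. The rule found 49 of the 27962 gene names on the array, read by 69 probes, and each gene took its value from its brightest probe. One of the 49, Tnfsf5ip1, carries an older name of Psmg2, a chaperone of proteasome assembly. It is no ligand or receptor, and the counts below are over the other 48 genes: 17 ligands, 25 receptors and 6 TRAF adaptors.

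The ligands are mostly membrane proteins that act as trimers and can be shed from the cell. The receptors bind them through cysteine-rich repeats, and then either recruit caspases through a death domain in their cytoplasmic tail or recruit TRAF adaptors, which activate NF-kappaB and JNK kinases. Decoy receptors bind a ligand without passing on the signal. In fibroblasts and macrophages, TNF signalling is best known for its part in inflammation, while the RANK branch controls osteoclasts and the ectodysplasin branch controls hair and tooth formation.

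Total RNA of untreated mouse embryonic stem (ES) cells, the pluripotent cells of the early embryo, was compared with that of untreated mouse embryonic fibroblasts (MEF) on 3 two-colour arrays. ES cells were grown in Knockout DMEM with fetal bovine serum and leukaemia inhibitory factor (LIF), and MEF in DMEM with heat-inactivated serum. The line, strain, embryonic day and passage of either culture were not given in the sources used here. Each array held 1 of 3 ES cell replicates in Cy3 and MEF RNA in Cy5, with no dye swap, so a dye bias of a probe cannot be told apart from a difference between the cells. The MEF RNA counts as 1 control sample, so no test holds the spread between MEF cultures, and nothing says that the ES replicates were separate cultures. Values are log2 ratios of ES cells over MEF, as mean ± SD over the 3 arrays, and signals are normalised spot intensities in arbitrary units. A gene was called when its adjusted p (limma, Benjamini-Hochberg over 19494 genes) was under 0.05 and it differed at least 2-fold.

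The arrays detected 68.2% to 70.2% of probes in the ES channel and 67.6% to 73.4% in the MEF channel. All 5 ES cell markers (among them Nanog and Sox2) were called higher and all 5 fibroblast markers (among them Col1a1) lower in ES cells. Macrophage markers also went with the MEF channel: 10 of 11 were called lower in ES cells, all but Laptm5 (-0.17). Their summed signal was 14780 to 15295 in ES cells and 490404 to 523496 in MEF, and none was below background in MEF. The macrophage growth factor receptor Csf1r was at -5.69 ± 0.075 and the lysozyme gene Lyz2 at -6.18 ± 0.011. Of 9 T and B cell markers, 6 were tested; Lck (2.36) and Cd79b (2.97) were called higher and none lower. Of the endothelial markers, Pecam1 (2.59) and Tek (2.11) were called higher and Kdr (-1.40) lower. Of the neural and glial markers, Gfap (-5.73) and Map2 (-1.71) were lower and Tubb3 (0.026) was not called. The keratinocyte markers Krt5 (0.70) and Krt14 (0.29) were not called either. Several of the genes below are expressed by macrophages and lymphocytes, and the part of such cells in their values was not tested.

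The locus with the widest contrast holds Ltb, Tnf and Lta, which lie side by side on chromosome 17. The first 30 bases of the 60-base probes that read these genes are shown because each rests on 1 probe. The probes map, in build mm7, to chr17:33292571-33292630 (Ltb), chr17:33296067-33296126 (Tnf) and chr17:33299547-33299606 (Lta).
Ltb probe: atctgtattcattcctggaggatcgactga
Tnf probe: tgggctttccgaattcactggagcctcgaa
Lta probe: aggggaaaaatagaaagccgtcagatgaca

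Because the RNA levels of Ltb and Tnf differ in direction, the 250 bases before each gene's start are shown, also for the untested Lta. They are the RefSeq sequences of build GRCm38.p6, on the gene's strand, at chr17:35194257-35194506 (Ltb, plus strand), chr17:35202008-35202257 (Tnf, minus strand) and chr17:35205352-35205601 (Lta, minus strand). Capitals mark the letters TATAAA in Tnf and Lta, and in Ltb a match to the kappaB motif bound by NF-kappaB.
Ltb promoter: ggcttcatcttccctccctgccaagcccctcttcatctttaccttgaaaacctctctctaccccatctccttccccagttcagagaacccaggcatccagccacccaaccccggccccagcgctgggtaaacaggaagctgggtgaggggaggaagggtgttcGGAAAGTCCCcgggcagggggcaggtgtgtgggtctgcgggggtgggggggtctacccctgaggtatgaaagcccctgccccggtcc
Tnf promoter: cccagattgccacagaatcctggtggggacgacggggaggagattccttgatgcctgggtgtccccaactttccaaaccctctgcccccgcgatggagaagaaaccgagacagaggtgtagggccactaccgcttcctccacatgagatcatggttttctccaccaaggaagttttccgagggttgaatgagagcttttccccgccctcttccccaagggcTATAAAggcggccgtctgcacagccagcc
Lta promoter: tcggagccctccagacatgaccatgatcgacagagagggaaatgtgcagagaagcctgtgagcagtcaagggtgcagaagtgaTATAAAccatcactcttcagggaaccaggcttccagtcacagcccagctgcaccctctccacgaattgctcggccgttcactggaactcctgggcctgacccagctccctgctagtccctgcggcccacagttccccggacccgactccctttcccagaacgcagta

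TATAAA begins 29 bases before the start of Tnf and 167 bases before that of Lta, and the kappaB match 87 bases before that of Ltb. RefSeq promoter windows were found for 40 of the 48 genes, 44 windows in all. The kappaB motif, searched by its name's usual consensus on both strands, was in 4 of the 44 windows (9.09%), against 3.90% of all 32851 windows. It was found before Ltb, Tnfrsf9, Tnfrsf8 and Traf3. TATAAA, on either strand, was in 6 windows (13.6%), against 12.4% of all. GGGCGG, letters known to be bound by Sp1, was in 21 windows (47.7%), against 32.7% of all. In the windows shown, the motifs in capitals do not overlap one another. A match describes these letters only, and bases farther than 250 before the start were not searched.

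Of the 48 genes, 39 were tested, 3 were called higher in ES cells, 15 were called lower and 21 were not called. The share called higher was 7.69%, against 20.4% of all genes tested, and the share called lower was 38.5%, against 22.5%. The median log2 ratio was -0.51, and -0.05 over all genes. In either direction 18 (46.2%) were called, against 42.8% of all genes. Of the 39, 7 passed the filter through 1 channel only, so that the filter itself favoured a difference; 4 of these were called lower and 1 higher. Among the 32 genes above background in both channels, 2 (6.25%) were called higher and 11 (34.4%) lower, against 19.7% and 22.4% of all such genes. Adjusted p of the 18 called genes ran from 1.62e-07 to 1.83e-04. Of the 21 that were not called, 19 passed the p threshold and fell short of 2-fold. Over all genes tested, 95.4% passed the p threshold when no fold was required.

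The SD over arrays was 0.0045 to 0.26 among the tested genes, with a median of 0.034. The 9 untested genes were the ligands Tnfsf4, Tnfsf10, Fasl, Tnfsf7 and Lta and the receptors Tnfrsf17, Tnfrsf8, Tnfrsf7 and Tnfrsf14. They were too dim in both channels, with signals of 72.9 to 149.8, and ran from -0.47 to 0.31. Tnfsf7 and Tnfrsf7 are older names of Cd70 and Cd27, a ligand and its receptor on lymphocytes.

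**Figure D1:**
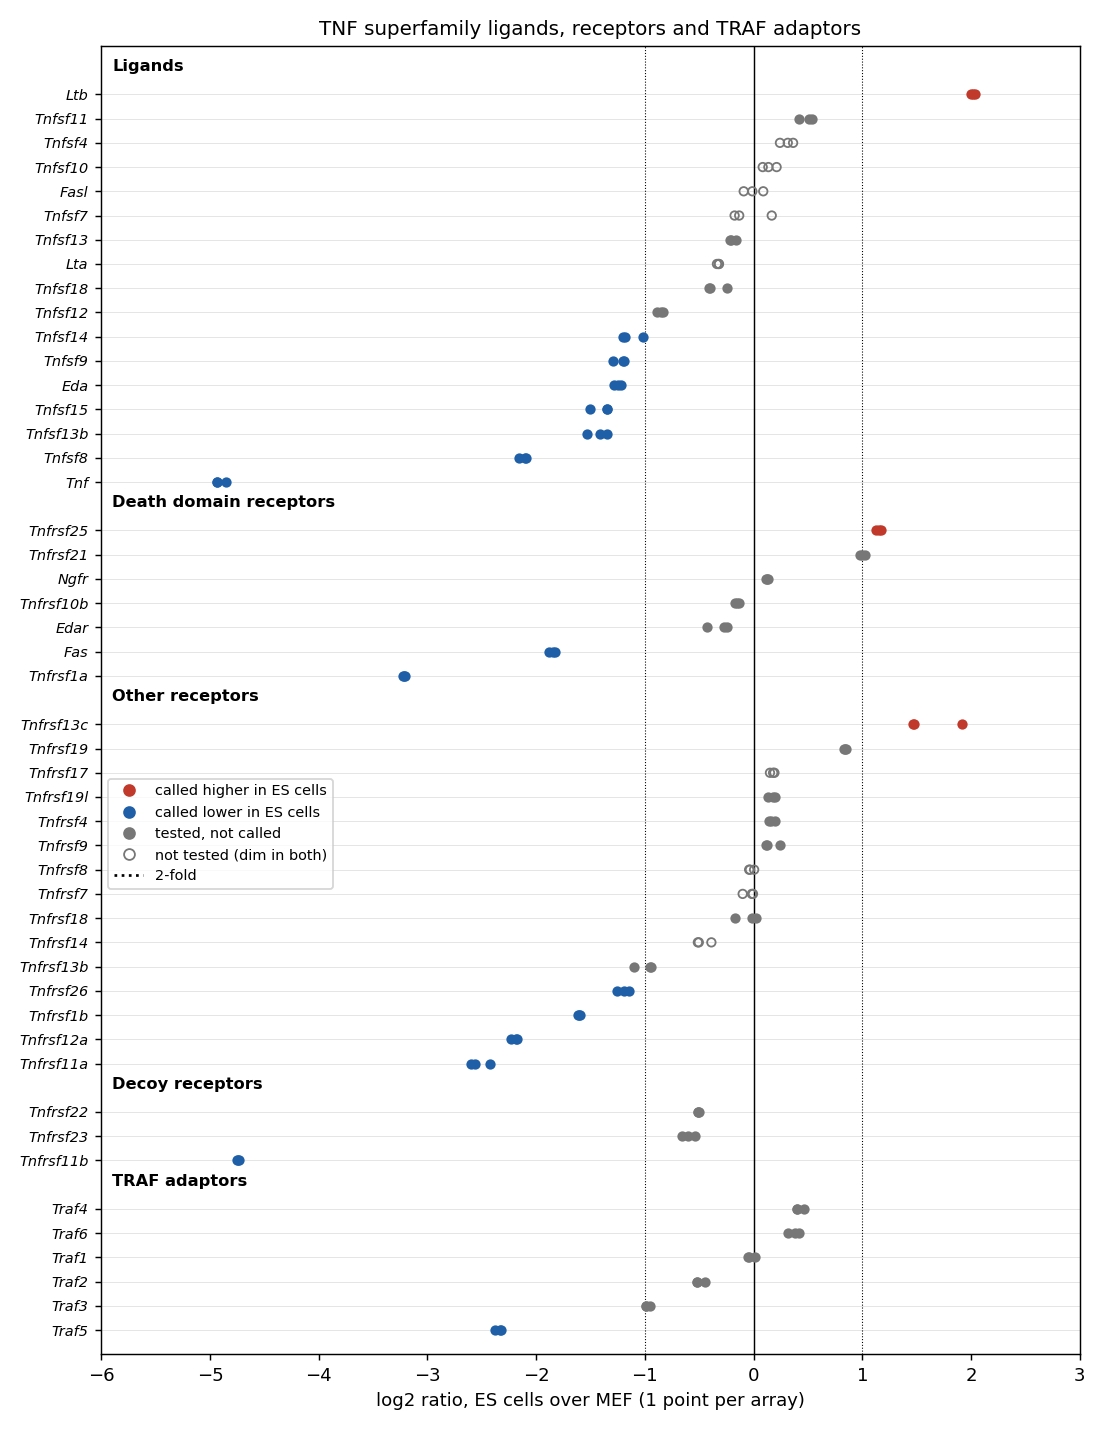
Log2 ratio of ES cells over MEF for the 48 ligands, receptors and TRAF adaptors (rows, by role), with 1 point for each of the 3 arrays. Red points were called higher, blue points lower, grey points were tested and not called, and open points were not tested. Dotted lines mark a 2-fold difference. Tnf (-4.91) and Tnfrsf11b (-4.74) lie farthest to the left and Ltb (2.02) farthest to the right.

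Of the 17 ligands, 12 were tested, 1 was called higher and 7 lower, but 5 of the 12 (Tnfsf8, Tnfsf15, Tnfsf13b, Tnfsf14 and Tnfsf18) passed the filter through MEF alone. Over the 7 ligands above background in both channels, 1 was higher and 3 were lower, with a median of -0.86, against 19.7% and 22.4% of all such genes. Tnf, the founding cytokine of the family, read 176, 169 and 165 in ES cells and 5075, 5174 and 5073 in MEF. Its signal was low in all 3 ES replicates and high in MEF on every array, and the log2 ratio was -4.91 ± 0.050, a 30.05-fold difference (adjusted p = 1.74e-07, limma). The fold depended on the background correction: it was 51.1 with the scanner software's processed signals and 49.7 in the authors' value table. In bulk RNA, fewer cells that express a gene and less RNA per cell cannot be told apart. Macrophages are a known source of Tnf, and their markers had the same direction as stated above.

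Ltb, lymphotoxin beta, anchors lymphotoxin to the membrane. It was the only ligand called higher in ES cells. Its signal was 1364, 1352 and 1356 in ES cells and 333, 339 and 335 in MEF. The ratio was 2.02 ± 0.019, or 4.05-fold (adjusted p = 2.38e-07, limma). Ltb is known from lymphocytes. The 9 T and B cell markers summed to 19789 to 19974 in ES cells and 4746 to 5036 in MEF, but most of this sum was Lck. Lck read 16350, 16602 and 16576 in ES cells and 3257, 3207 and 3172 in MEF. Of the 6 markers tested, Lck and Cd79b were called higher and 4 were not called, with a median of 0.02. Cd3g and Cd8a were not above background in ES cells on any array. The part of lymphocytes in the result was not tested. Lta, the partner of Ltb in the lymphotoxin trimer, was not tested and was not well above background in ES cells on any array.

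Tnfsf8, the CD30 ligand, was not well above background in ES cells (100, 99.9 and 93.1) and read 426, 430 and 417 in MEF. ES cells had at least 3.79-fold less (measured ratio -2.12 ± 0.036). For this bound, the ES value on an array was not allowed to go below the weakest signal that counted as well above background there. A reading above that weakest signal was used as it was, as on arrays 1 and 3 for Tnfsf13b below. Tnfsf15, also called TL1A, read 86.1, 87.0 and 86.8 in ES cells and 219, 247 and 221 in MEF. It too was not well above background in ES cells, and was at least 2.10-fold lower. The measured ratios of such dim genes moved with the background correction, to -4.41 for Tnfsf8 and -3.33 for Tnfsf15 with processed signals, so only the bounds are given as folds.

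Tnfsf13b, the B cell survival factor BAFF, had signals of 112, 119 and 122 in ES cells and 298, 344 and 311 in MEF. None of the ES readings of that probe was well above background, and by that probe the difference was at least 2.66-fold. A second probe of the gene, well above background in ES cells on 2 of 3 arrays, gave -0.13. The call and the bound therefore rest on the brightest probe. Eda, ectodysplasin, which shapes hair and teeth, read 193, 197 and 203 in ES cells against 468, 468 and 473 in MEF, a ratio of -1.25 ± 0.030.

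Tnfsf9, the 4-1BB ligand, had 276, 273 and 266 in ES cells and 633, 624 and 651 in MEF, a ratio of -1.23 ± 0.056. Tnfsf14, also called LIGHT, had 167, 135 and 136 in ES cells and 337, 310 and 308 in MEF (-1.13 ± 0.10), and was above background in ES cells on 2 of 3 arrays. Processed signals gave Tnfsf14 -2.03 and the authors' table -1.99. In all these ligands the ES and MEF signals were apart on every array. With the 2-fold minimum of a call and a median SD of 0.028 over all genes, this adds no separate support.

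The other 4 tested ligands were not called. Tnfsf11, the osteoclast factor RANKL, was at 0.49 ± 0.065, and its second probe at 0.48. Tnfsf13, also called APRIL, was at -0.20 ± 0.030 (0.07 with median centring). Tnfsf12, also called TWEAK, was at -0.86 ± 0.030, but was called lower with processed signals (-1.498), normexp without an offset (-1.17), the authors' table (-1.46) and limma's treat at 1.5-fold. Tnfsf18, the GITR ligand, was not well above background in ES cells and at least 1.27-fold lower there.

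Of the 25 receptors, 21 were tested, with a median of -0.32. Of these, 2 (9.52%) were called higher and 7 (33.3%) lower, against 20.4% and 22.5% of all genes tested. All 7 death domain receptors were tested. Tnfrsf1a, the widely expressed main TNF receptor, read 5825, 5786 and 5943 in ES cells and 53893, 53916 and 55263 in MEF. It was 9.29-fold lower in ES cells on 3 arrays that hardly differed (-3.22 ± 0.0054, adjusted p = 1.62e-07, limma). Its probe lies at chr6:125388661-125388720 (mm7). Fas, the receptor that triggers apoptosis on binding Fas ligand, read 1142, 1128 and 1151 in ES cells and 4056, 4147 and 4131 in MEF. Fas was called lower by 3.60-fold (-1.85 ± 0.025), and a second probe gave -1.54. Its ligand Fasl was not tested.

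Tnfrsf25, also called DR3, the receptor of Tnfsf15, was the one death domain receptor called higher, at 668, 653 and 643 in ES cells and 301, 290 and 295 in MEF. The ratio was 1.15 ± 0.024, or 2.22-fold, and a second, dim probe that did not pass the filter gave 0.05. Tnfrsf21, also called DR6, missed the 2-fold minimum by the smallest margin among the receptors on that side, with a mean of 0.998 ± 0.022. Without replicate 2 it was 1.01 and was called. It was also called with processed signals (1.17), in the authors' table (1.21), with median centring (1.22) and with treat. The same held for normexp without an offset (1.06) and for no background subtraction (1.01). Its other probes gave 0.83 and 0.52, and the mean of its probes (0.78) was not called. Ngfr, the low-affinity neurotrophin receptor, read 4487, 4411 and 4445 in ES cells and 4092, 4058 and 4101 in MEF. Ngfr passed the p threshold with a ratio of 0.12 ± 0.0087 that was far below 2-fold, and its second probe gave -0.25 ± 0.033.

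Edar, the ectodysplasin receptor, was near background: 125, 188 and 115 in ES cells, above background on 1 array, and 148, 227 and 154 in MEF. Its ratio was -0.32 ± 0.10 and was not called. Its ES and MEF signals overlapped across arrays, but MEF was higher within each array (log2 ratios -0.24, -0.27 and -0.43). Tnfrsf10b, the mouse TRAIL receptor, was at -0.15 ± 0.022 (0.08 with median centring) and was not called, and its other probes gave 0.04 and 0.01.

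Among the 3 decoy receptors, Tnfrsf11b, or osteoprotegerin, which traps RANKL, stood apart. It read 661, 657 and 633 in ES cells and 17731, 17491 and 17081 in MEF, a 26.8-fold difference with -4.74 ± 0.0091 (adjusted p = 1.62e-07, limma). Its probe lies at chr15:54311325-54311384 (mm7). The mouse TRAIL decoys Tnfrsf22 (-0.51 ± 0.0045) and Tnfrsf23 (-0.60 ± 0.056) were not called.

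Of the other 15 receptors, 11 were tested. Of these, 1 (9.09%) was called higher and 4 (36.4%) lower, against 20.4% and 22.5% of all genes tested. Tnfrsf13c, the BAFF receptor of B cells, read 332, 343 and 325 in ES cells and 119, 90.9 and 117 in MEF. None of the 3 MEF readings was well above background, and the gene was at least 2.85-fold higher in ES cells. The MEF readings of arrays 1 and 3 entered this bound as they were. The Tnfrsf13c ratio (1.62 ± 0.26) had the highest SD of all tested genes here, with array 2 at 1.92 and the others at 1.48 and 1.47.

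Tnfrsf11a, also called RANK, the receptor of Tnfsf11, read 325, 309 and 310 in ES cells and 1742, 1872 and 1827 in MEF. Its ratio was -2.53 ± 0.093, or 5.77-fold lower in ES cells, and a second probe gave -1.17 (-1.85 for the mean of both). Tnfrsf12a, also called Fn14, the receptor of TWEAK, read 9263, 9039 and 8909 in ES cells and 41981, 41177 and 41901 in MEF. Its ratio was -2.20 ± 0.029, or 4.60-fold lower in ES cells.

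Tnfrsf1b, the TNF receptor found mainly on blood and endothelial cells, read 1116, 1118 and 1129 in ES cells and 3413, 3403 and 3418 in MEF (-1.61 ± 0.0068), but a second bright probe gave -0.05. Tnfrsf26 read 251, 255 and 264 in ES cells and 599, 584 and 585 in MEF, a ratio of -1.20 ± 0.053. Macrophages express Tnfrsf1b and Tnfrsf11a, and macrophage markers were lower in ES cells as given above.

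The other 6 tested receptors were not called. Tnfrsf19, or TROY, was at 0.84 ± 0.0098, and a second probe, not well above background in MEF, was at 1.48. Tnfrsf13b, or TACI, a further BAFF receptor, was at -0.997 ± 0.092; without replicate 2 it was -1.02, and without replicate 3 -1.03, and was called both times. It was also called lower with processed signals (-1.47), in the authors' table (-1.43), with normexp without an offset (-1.24), without background subtraction (-1.01) and with treat. Tnfrsf19l (Relt), Tnfrsf4 (OX40), Tnfrsf9 (4-1BB) and Tnfrsf18 (GITR) were between -0.06 and 0.17.

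Read by ligand and receptor, the TNF branch was lower in ES cells at each brightest probe: Tnf, Tnfrsf1a and Tnfrsf1b. In the RANK branch, Tnfsf11 was not called while the receptor Tnfrsf11a and the decoy Tnfrsf11b were lower. In the TWEAK branch the receptor Tnfrsf12a was lower and the ligand was called only under the alternatives named above. In the pair of Tnfsf15 and Tnfrsf25 the ligand, not well above background in ES cells, was lower and the receptor higher. In the BAFF branch, Tnfsf13b was lower by its brightest probe and not by the mean of its probes (-0.78), Tnfrsf13c was higher with MEF not well above background, and Tnfrsf13b was just short of a call in the lower direction.

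Some members of these families carry symbols that the name rule does not match. Ltbr, the receptor of membrane-bound lymphotoxin, read 2230, 2433 and 2551 in ES cells and 26009, 28648 and 29816 in MEF, and was 11.7-fold lower in ES cells (-3.55 ± 0.0071). Ltb and its receptor thus had opposite directions. Cd40 (0.40 ± 0.038) and Eda2r (0.66 ± 0.026) were not called, and Cd40lg was not tested.

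**Figure D2:**
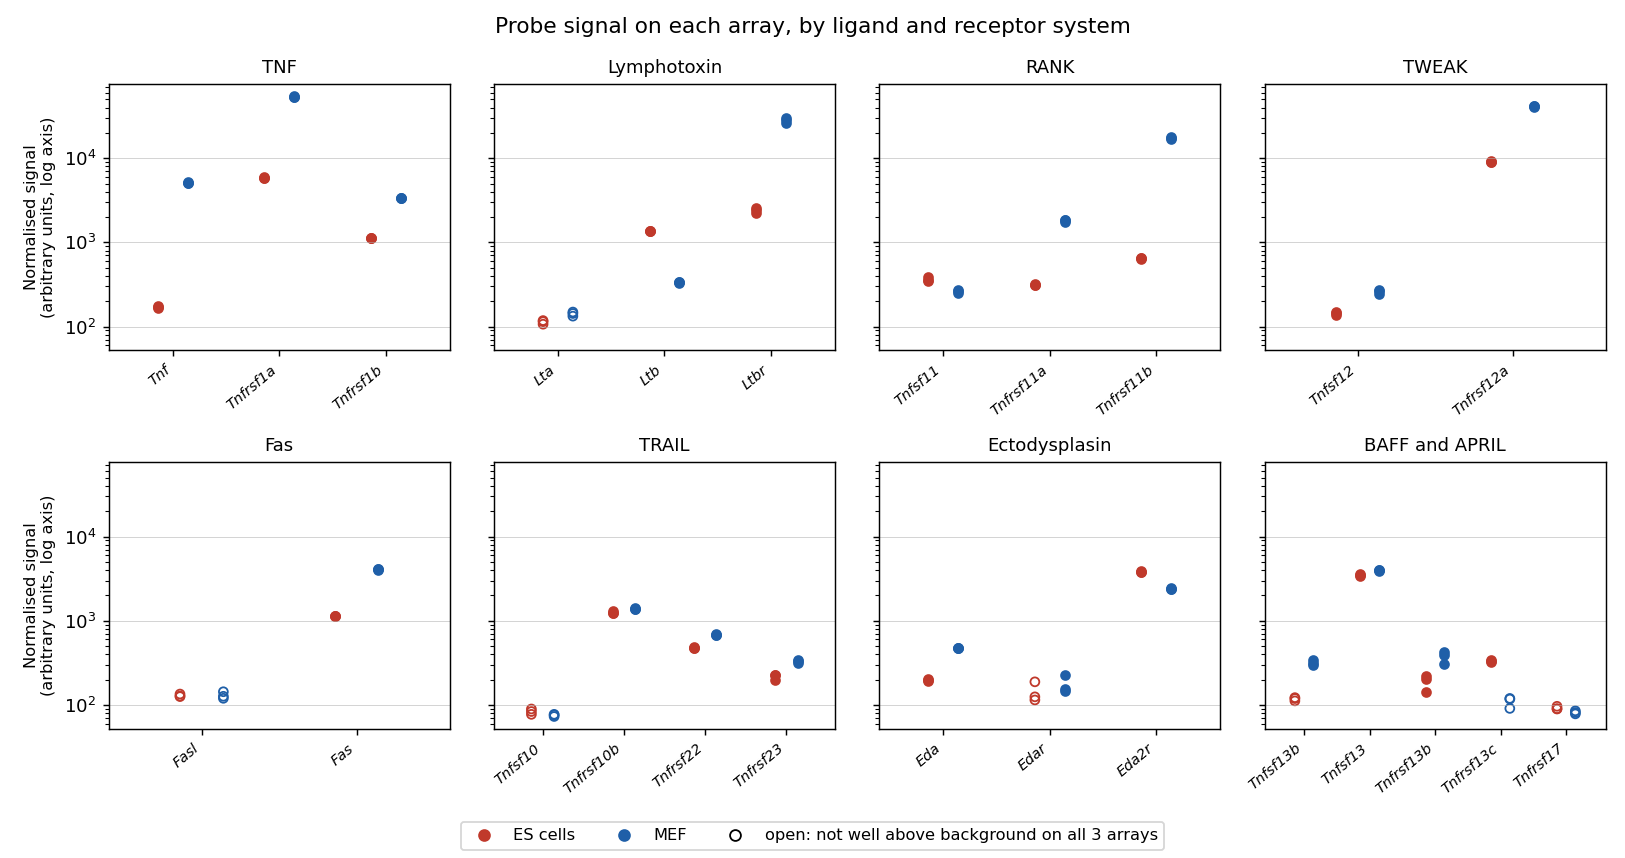
Normalised probe signal (arbitrary units, log axis) of ligands and receptors, by signalling system, with 1 point per array for ES cells (red) and MEF (blue). Open points belong to a channel that was not well above background on all 3 arrays. Tnfrsf1a, Ltbr, Tnfrsf11b and Tnfrsf12a sit lower in ES cells, and Ltb and Tnfrsf13c higher. Signals of different probes are not on 1 scale.

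All 6 TRAF adaptors were tested and 1 (16.7%) was called, in the lower direction, against 22.5% of all genes tested. Traf5, an adaptor of CD27, CD30 and the lymphotoxin receptor, read 825, 853 and 828 in ES cells and 4157, 4268 and 4311 in MEF. It was 5.08-fold lower in ES cells (-2.35 ± 0.031, adjusted p = 2.64e-07, limma), at chr1:191550149-191550208 (mm7).

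Traf3, which restrains the non-canonical NF-kappaB pathway, read 2645, 2652 and 2699 in ES cells and 5246, 5268 and 5235 in MEF. Its signals were apart on every array, but the ratio of -0.98 ± 0.019 was just short of 2-fold. Traf2, the main adaptor of both TNF receptors, read 6175, 6284 and 6317 in ES cells and 8400, 8986 and 9033 in MEF (-0.49 ± 0.042).

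Traf1, which is itself induced by NF-kappaB in many cells, read 384, 410 and 406 in ES cells and 397, 422 and 403 in MEF. These signals overlapped, and its ratio of -0.03 ± 0.034 had an adjusted p of 0.207 (limma). Traf4 read 27833, 26962 and 26394 in ES cells and 20158, 20416 and 20032 in MEF (0.42 ± 0.038). Traf6, which also serves the interleukin-1 and Toll-like receptors, read 856, 940 and 924 in ES cells and 658, 703 and 739 in MEF (0.37 ± 0.049). Traf4 and Traf6 were not called. The other probe of Traf4 (-0.43) and another probe of Traf6 (-0.81) had the opposite sign, and a further, dim probe of Traf6 that did not pass the filter gave 0.04.

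Of the 48 genes, 16 had more than 1 probe, and 13 had a second probe that passed the filter. In 4 of these the probes differed by over 1 on the log2 scale: Tnfrsf1b, Tnfrsf11a, Tnfsf13b and Traf6. The difference, brightest minus other, was -1.54, -1.58 and -1.55 on the 3 arrays for Tnfrsf1b. It was -1.14, -1.58 and -1.36 for Tnfrsf11a. It was -1.26, -1.40 and -1.25 for Tnfsf13b and 1.23, 1.30 and 1.02 for Traf6. Traf4 had the next largest difference, 0.85 ± 0.072.

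The starts of these probes are shown because the value of the gene depends on which is read. The probes of Tnfrsf1b start 8.56 kb apart in mm7, those of Tnfrsf11a 2.35 kb, those of Tnfsf13b 1.82 kb, those of Traf6 1.84 kb and those of Traf4 0.895 kb. Whether a probe lies in an exon or a UTR was not determined, as no annotation of mm7 was used here.
Tnfrsf1b, brightest probe (-1.61): gcaattgcactgtgtgctggacagaattcc
Tnfrsf1b, other probe (-0.05): ctggtgaactgcttcatcctggtgcagagg
Tnfrsf11a, brightest probe (-2.53): atctagaccttaacagtaatccggcaggta
Tnfrsf11a, other probe (-1.17): cgcagacttcactccatacccaggggtccg
Tnfsf13b, brightest probe (-1.43): cgttgaatctgatccaaaccaggaaatata
Tnfsf13b, other probe (-0.13): ttgcctgtgctggtattttgaggtgtttct
Traf6, brightest probe (0.37): ttaactatcgaggtgattcttacttaagac
Traf6, other probe (-0.81): attgctgactgaccacttaagttcaatttt
Traf4, brightest probe (0.42): tctagtgctaggtgggcacagcaggggaac
Traf4, other probe (-0.43): ctaaattctttatcagtaggcgtatagttc

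**Figure D3:**
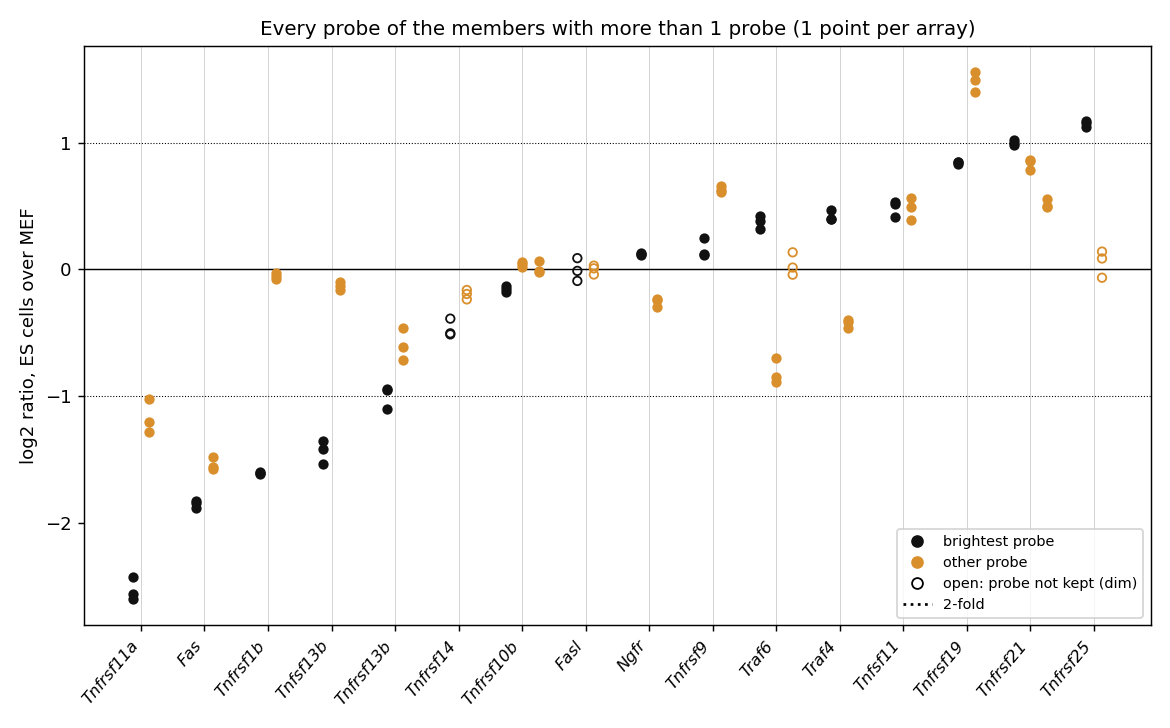
Log2 ratio of ES cells over MEF for each probe of the 16 genes with more than 1 probe, with 1 point per array. Black points are the brightest probe, orange points the others, open points are probes that did not pass the filter, and dotted lines mark 2-fold. The 2 probes of Tnfrsf1b lie at -1.61 and -0.05, while those of Fas (-1.85 and -1.54) lie close together.

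Many of these genes lie in clusters. In mm7, 21 of the 48 had another within 200 kb, in 15 pairs, and both genes were called in 3 pairs. Of all genes tested, 42.8% were called, and the share of called pairs among all neighbouring genes was not computed. Only Ltb and Tnf, whose probes lie 3.44 kb apart, were called in opposite directions, with a difference of 6.93 between their log2 ratios. Lta, whose probe is 3.42 kb from that of Tnf, was not tested.

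Tnfsf9 (-1.23) and Tnfsf14 (-1.13) on chromosome 17 were both lower and lie 81.9 kb apart, with the untested Tnfsf7 between them. Tnfsf15 (-1.40) and Tnfsf8 (-2.12) on chromosome 4 were both lower and lie 103 kb apart, neither well above background in ES cells. In the receptor cluster on chromosome 7, Tnfrsf26 (-1.20) was lower, while Tnfrsf22 (-0.51) and Tnfrsf23 (-0.60) were not called. The short-range pair of Tnfsf12 (-0.86) and Tnfsf13 (-0.20), 3.15 kb apart, held no called gene.

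**Figure D4:**
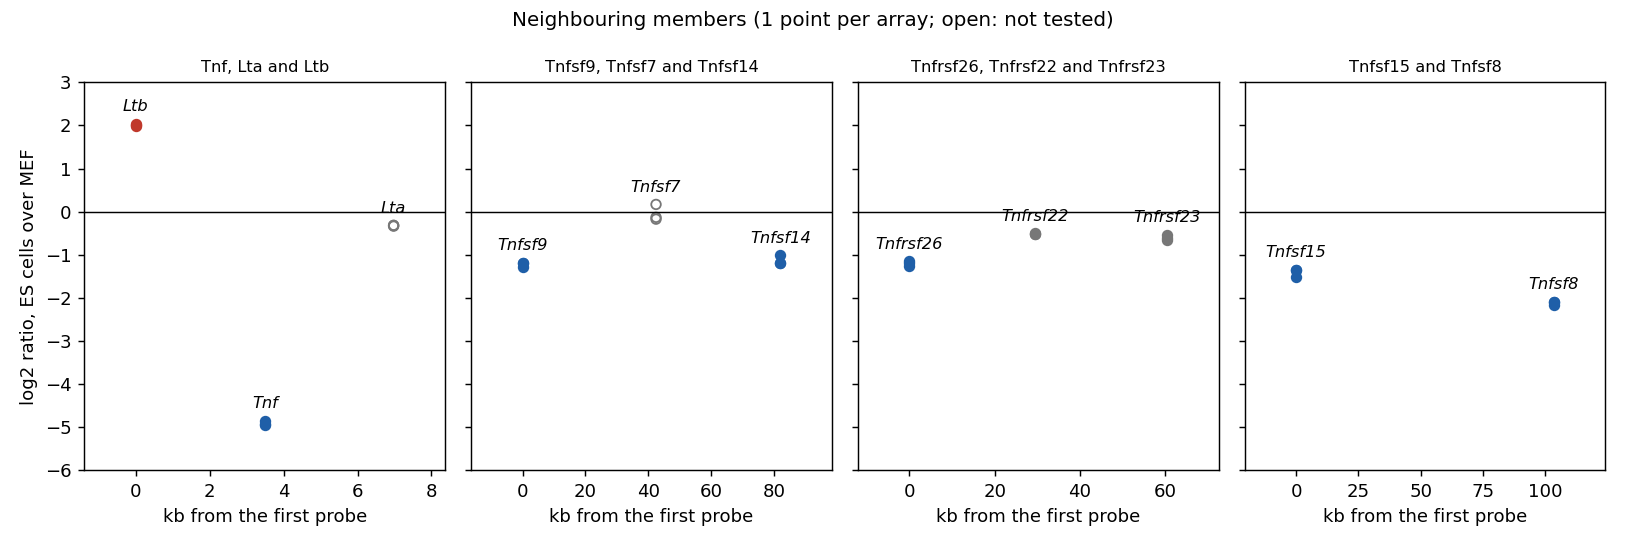
Log2 ratio of ES cells over MEF against distance along the chromosome (kb from the first probe) for 4 clusters, with 1 point per array. Red points were called higher, blue points lower, grey points were not called and open points not tested. Ltb (2.02) and Tnf (-4.91) are 3.44 kb apart.

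Downstream of the receptors, 50 signalling genes were listed and 48 tested. In ES cells 3 (6.25%) were called higher and 15 (31.2%) lower, and 30 were not called, with a median of -0.43. The background shares are those given for all genes, 20.4% higher and 22.5% lower.

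The genes lower in ES cells included parts of the complexes that form on TNF receptors. Jun, an AP-1 subunit activated by JNK, read 924, 921 and 944 in ES cells and 8186, 8304 and 8373 in MEF, and was 8.91-fold lower (-3.16 ± 0.014). Casp8, the initiator caspase of death receptors, read 621, 627 and 630 in ES cells and 4490, 4730 and 4717 in MEF (-2.89 ± 0.033). Ripk1, the kinase recruited to Tnfrsf1a, was at -2.20 ± 0.0056. Rela, the p65 subunit of NF-kappaB, was at -1.95 ± 0.028.

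The other 11 were Ripk3, Mlkl, Tradd, Fadd, Cflar, Birc3, Tank, Ikbke, Nfkb2, Map3k14 and Tnfaip3, at -1.94 to -1.04. Ripk3 and Mlkl carry out necroptosis, Tradd and Fadd link receptors to Ripk1 and Casp8, and Cflar restrains Casp8. Tnfaip3, or A20, is a feedback inhibitor of NF-kappaB.

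Tab3, a binding partner of the kinase TAK1, was called higher at 9309, 9060 and 9010 in ES cells and 2442, 2337 and 2362 in MEF (1.94 ± 0.014). Birc2, a ubiquitin ligase bound to Traf2, was at 1.21 ± 0.017, against -1.13 ± 0.033 for its neighbour and relative Birc3. Daxx, a histone chaperone first found as a Fas-binding protein, was at 1.04 ± 0.0053. Edaradd and Rel were not tested.

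**Figure D5:**
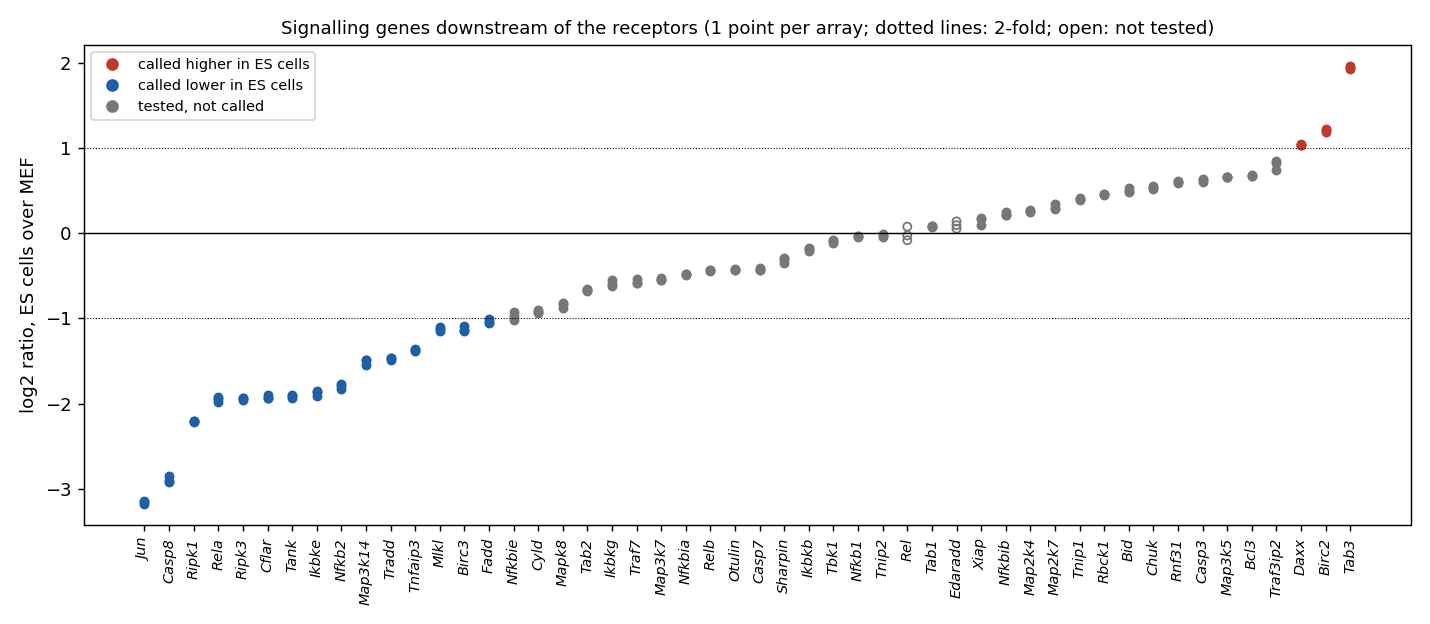
Log2 ratio of ES cells over MEF for 50 signalling genes downstream of the receptors, ordered by mean, with 1 point per array. Red points were called higher, blue points lower, grey points were not called and open points not tested; dotted lines mark 2-fold. Jun (-3.16) is lowest and Tab3 (1.94) highest.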

How the data were processed

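RNA of 3 ES cell replicates (Cy3) and of MEF (Cy5) was read on 3 two-colour Agilent arrays of 1 slide. The design text gives the Cy5 RNA a different name from the labels' MEF, and the labels were taken as right. Scans were quantified by the authors in Agilent Feature Extraction (9.5.3.1), with probes placed on mm7, per the file headers. The deposited intensities are mean spot and median background brightness. Processed intensities, also deposited, had background and dye bias removed by the software, and their log10 ratio was deposited as MEF over ES cells. A log2 table of values from the authors, whose columns have medians of 0.213, 0.0859 and -0.143 and so are not centred, matched the scanner ratios as ES cells over MEF (lowest r 0.998). How that table was made is not given in the sources used here.

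With limma 3.58.1 in R 4.3.3, spot intensities were background-corrected (normexp, offset 50) and loess-normalised within arrays. Control spots were left out of the loess fit and of the results. Outlier spots (117 to 144 per array) were left out later, when spots were averaged by probe. Signals per channel were scaled between arrays by Aquantile. Probes well above background in 1 channel on all 3 arrays were kept (29502 of 41174), each gene took its brightest probe, and ratios were tested against 0 (lmFit, eBayes) over 19494 genes. The number of arrays limits the precision, and since the replicates may be technical, each p reflects the spread among these 3 arrays alone. On simulated data for ES cells against MEF over 29502 probes, 50 of 50 probes changed by 1.5 (log2) in each direction were called. The changed probes were drawn from brighter probes only, and the noise was not matched to the spread of each gene. The dimmer called genes Tnfsf8, Tnfsf13b, Tnfsf14, Tnfsf15 and Tnfrsf13c were therefore not covered by the simulation.

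Genes were matched by the files' names and renamed through a RefSeq table of GRCm38.p6. The genes and lists were chosen with earlier results of these data known. Each gene is named, with values by array for those called, for TNF, Fas, Ngfr and ectodysplasin genes and for the TRAF adaptors; of the signalling list, up to 4 called genes at each end. Alternatives covered background, centring, filter, probe choice, call rule, the authors' table and leaving out each array.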

Additional observations from a re-analysis of the deposited data

How the results depend on the processing

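No call changed direction under any alternative. The 18 called ligands, receptors and adaptors were all called again under each alternative except 3: 13 with the filter on both channels, 16 with the mean of all probes (without Tnfrsf1b at -0.83 and Tnfsf13b at -0.78) and 8 with a 4-fold minimum. The count called higher was 5 with the processed signals, with median centring, with limma's treat at 1.5-fold and with the authors' value table, and 1 with a 4-fold minimum; Tnfrsf21 and Tnfrsf19 were the genes added. The count called lower was 17 with processed signals, with the authors' table and with normexp without an offset (Tnfsf12 and Tnfrsf13b added), 18 with treat (Traf3 as well) and 7 with a 4-fold minimum. Folds of 6 called genes, each low in 1 channel, moved by over 1.5 times with processed signals and with the authors' table: Tnf, Tnfsf8, Tnfsf13b, Tnfsf14, Tnfsf15 and Tnfrsf13c (1.62 to 3.73 with processed signals). Of the signalling genes, treat called 7 higher, and the 4-fold minimum called 0 higher and 3 lower. Genes with other symbols called were 2 under treat, and all genes called were 3189 with a 4-fold minimum. Leaving out each replicate gave 3 to 4 higher and 15 to 16 lower. Median centring moved the median of all genes from -0.05 to 0.11. Uncalled genes changed sign: under median centring Tnfrsf10b (0.078), Tnfrsf18 (0.10), Tnfsf13 (0.066) and Traf1 (0.13); with the authors' table Tnfrsf18 (0.015) and Traf1 (0.057); with processed signals Traf1 (0.017); with the mean of all probes Ngfr (-0.066), Traf4 (-0.0021) and Traf6 (-0.22); and, leaving out each replicate, Tnfrsf18 (-0.094 to 0.0015). The comparison is already made within each array, as a ratio of ES cells over MEF. No paired analysis was possible because the arrays form 1 group, so no second group shares the replicate numbers.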
